A study of Mus musculus with 6 samples.

Results

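Extracellular nucleotides act on macrophages through a family of surface receptors and are cleared by enzymes on the cell surface. ATP opens the P2X ion channels, whereas the P2Y receptors couple to G proteins and respond to ATP, ADP, UTP, UDP or UDP-glucose. The ectonucleotidase CD39 converts ATP and ADP to AMP, from which CD73 makes adenosine, the ligand of the adenosine receptors. In tissue macrophages these receptors are known for guiding processes toward injured cells, for phagocytosis and for inflammasome activation.

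The genes described here are 10 of the 42256 genes in the count table, chosen by symbol as P2Y and P2X receptors, the CD39 gene Entpd1, the adenosine receptor gene Adora2b, and Med12l, the gene inside which P2ry12, P2ry13 and P2ry14 lie. They were chosen with the difference between the genotypes already known, so their values are given as a description without a p-value, and their differences are not independent evidence of anything. All 10 symbols matched exactly 1 row, and all 10 passed the filter on low counts.

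The cells were untreated macrophages grown from the bone marrow of adult males on a mixed 129S1/Sv x C57BL/6 background, cultured for 7 days with 20% L929-conditioned medium, a source of the growth factor CSF1, and 10% FBS. The knockout group (KO, CDH11-/-) carries a disrupted gene of cadherin-11, which holds neighbouring mesenchymal cells together, and the wild-type group (WT, CDH11+/+) carries the intact gene. There were 3 KO and 3 WT libraries of total RNA, whose source is labelled as total bone marrow cells, with 27170943 to 37113689 counts each. The design text of the series mentions 4 KO and 3 WT animals. The sample labels do not say which animal a library came from, so the p-values below reflect only how these libraries vary.

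Values are CPM, counts scaled to a common library total, after TMM scaling, as mean ± SD with n = 3 libraries per genotype. Differences are log2 fold changes of KO over WT from edgeR's quasi-likelihood test, each with a standard error (SE), and the threshold is a Benjamini-Hochberg adjusted p of 0.05 over all genes tested. Of 12862 genes tested, 35.2% passed this threshold, 2375 higher and 2157 lower in KO (2933 and 1621 with upper-quartile scaling). These counts depend on single libraries: 1037 genes were higher and 942 lower without WT 1, 1327 and 1160 without WT 2, 1426 and 1293 without KO 2, and 1322 and 1057 without KO 3. Cdh11 held 4 to 6 counts in KO libraries and 6 to 11 in WT libraries, too few to check the genotype labels. A principal component analysis of 500 genes put 66.97% of their variance on its first axis, on which KO 1 at 7.11 was the KO library nearest to WT, and KO 2 at 28.36 the farthest. Macrophage markers were abundant in both genotypes, at a sum of 6078 to 6752 CPM in KO and 7552 to 8381 CPM in WT over 6 genes, so every KO sum was below every WT sum. Of these genes 1 fell, Csf1r, the CSF1 receptor (log2 fold change -0.70, edgeR adjusted p = 0.00894), and 1 rose, the lysosomal glycoprotein gene Cd68 (0.32, edgeR adjusted p = 0.0244), and Cd68 was not past the threshold without WT 1 (0.27), WT 2 (0.30), KO 2 (0.31) or KO 3 (0.28). Csf1r was also the largest of the 6 marker genes, at 2287 CPM in KO and 3723 CPM in WT, and made most of the gap between the sums. Libraries of Adgre1, Itgam and Fcgr1 overlapped between the genotypes, while Mertk was lower and Cd68 higher in every KO library. Over all genes tested, 16.8% fell and 18.5% rose. The part of the macrophage markers in the differences below was not tested. The B cell, T and NK cell, dendritic cell, mast cell and stroma lists each summed to at most 6.11 CPM in any library, with the stroma gene Dcn at 0 and 1 mast cell gene higher in KO. The neutrophil list summed to 31.99 to 86.4 CPM in KO and 25.5 to 66.1 CPM in WT with none of its 8 tested genes past the threshold. RNA was taken from whole cultures, so fewer cells that carry a transcript and less of it per cell cannot be told apart.

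Of the 10 genes, 8 passed the threshold, 6 lower and 2 higher in KO, beside 35.2% of all genes (16.8% lower, 18.5% higher), and P2rx4 and Med12l did not. In 7 genes every KO library was below every WT library, beside 26.4% of all genes tested, and in 2 every KO library was above, beside 27.0%, so that 9 of the 10 were free of overlap, beside 53.4%. The median log2 fold change was -0.66 over the 10 genes and 0.001 over all genes tested. Since the choice of genes used this comparison, nothing is read from these shares.

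P2ry12 and P2ry13 had the largest differences among the genes chosen, and P2ry14 is their neighbour. The stretches below lie before RefSeq transcript starts of these 3 genes and of P2ry2 and Adora2b. They set 1 window from each of the 3 genes of the chromosome 3 cluster beside P2ry2 and Adora2b, the 2 genes that were higher in KO. Each is the 250 bases before a RefSeq transcript start in GRCm38.p6, written 5′ to 3′ on the strand of the gene, and for genes with several starts the most upstream one is shown. The gene spans given below come from another annotation, GENCODE M21. By those spans the P2ry2 window lies wholly inside its gene and the P2ry14 window partly inside. Capitals mark matches, on either strand, to 1 of 5 words: TGANTCA (the AP-1 site), CACGTG (an E-box), GGAAGT (an ETS-type word), TTGCNNAA (a C/EBP-type word) and TATAAA.
P2ry12, chr3:59262986-59263235, minus strand: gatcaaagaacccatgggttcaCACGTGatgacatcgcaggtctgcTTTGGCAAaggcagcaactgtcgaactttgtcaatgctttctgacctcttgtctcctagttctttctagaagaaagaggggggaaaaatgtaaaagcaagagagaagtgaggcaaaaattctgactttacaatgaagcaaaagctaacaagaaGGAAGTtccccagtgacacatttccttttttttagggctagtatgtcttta
P2ry13, chr3:59210883-59211132, minus strand: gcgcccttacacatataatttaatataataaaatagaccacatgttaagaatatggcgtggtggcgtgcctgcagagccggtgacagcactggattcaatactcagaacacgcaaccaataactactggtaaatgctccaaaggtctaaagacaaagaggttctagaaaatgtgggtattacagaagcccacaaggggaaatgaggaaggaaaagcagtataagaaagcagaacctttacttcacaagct
P2ry14, chr3:59153493-59153742, minus strand: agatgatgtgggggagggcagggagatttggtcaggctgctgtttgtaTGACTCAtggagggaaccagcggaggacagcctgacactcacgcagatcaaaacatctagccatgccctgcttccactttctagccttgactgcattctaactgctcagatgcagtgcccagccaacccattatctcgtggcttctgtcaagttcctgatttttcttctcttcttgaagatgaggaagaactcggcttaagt
P2ry2, chr7:101012054-101012303, minus strand: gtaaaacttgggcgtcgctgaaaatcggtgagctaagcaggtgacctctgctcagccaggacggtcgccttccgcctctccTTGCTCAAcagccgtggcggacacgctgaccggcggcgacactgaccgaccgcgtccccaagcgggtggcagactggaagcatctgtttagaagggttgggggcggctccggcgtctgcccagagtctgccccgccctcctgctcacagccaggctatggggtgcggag
Adora2b, chr11:62248734-62248983, plus strand: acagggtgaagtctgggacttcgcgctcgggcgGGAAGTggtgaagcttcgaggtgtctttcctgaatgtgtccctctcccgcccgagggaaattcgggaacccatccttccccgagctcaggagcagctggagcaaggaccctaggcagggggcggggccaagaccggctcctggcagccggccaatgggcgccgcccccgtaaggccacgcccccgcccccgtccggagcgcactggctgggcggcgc
The windows of P2ry12 and P2ry13 had the same GC content, 41.6%, below the median of 52.4% over the 32851 promoters in the table. Those of P2ry2 and Adora2b were richer in GC, at 65.2% and 69.6%, and that of P2ry14 held 50.0%. The P2ry12 window contained 3 of the 5 words, the E-box, the ETS-type and the C/EBP-type word, and the P2ry13 window none. The P2ry14 window contained TGANTCA, the P2ry2 window TTGCNNAA and the Adora2b window GGAAGT. P2ry14 has 4 such windows in the table, and of those not shown 1 held TGANTCA, 1 held GGAAGT and 1 held both TTGCNNAA and TATAAA. P2ry2 has 2, and the one not shown held CACGTG and TTGCNNAA. Over all promoters of this length, 6.75% held TGANTCA, 6.02% CACGTG, 19.7% GGAAGT, 9.56% TTGCNNAA and 12.4% TATAAA. None of the matches overlapped another within these 5 windows. A match is a run of letters and was not tested for binding.

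P2ry12 and P2ry13 encode receptors for ADP that couple to Gi proteins. P2Y12 is the target of the antiplatelet drug clopidogrel and a marker of microglia, where it steers processes toward sites of injury. P2ry12 (ENSMUSG00000036353, GRCm38 chromosome 3, 59216272 to 59262871, minus strand) stood at 10.3, 5.25 and 6.18 CPM in KO 1 to KO 3, against 28.6, 36.6 and 21.7 CPM in WT 1 to WT 3. Every KO library was below every WT library, with KO 1 the highest of the KO libraries. The mean was 7.25 ± 2.70 CPM in KO and 28.9 ± 7.48 CPM in WT, a log2 fold change of -1.997 (SE 0.30).

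P2ry13 (ENSMUSG00000036362, chromosome 3, 59207892 to 59210882, minus strand), 5.39 kb away, followed the same order of libraries. It stood at 20.9, 8.86 and 12.03 CPM in KO 1 to KO 3, against 51.1, 69.9 and 40.2 CPM in WT 1 to WT 3, and the log2 fold change was -1.95 (SE 0.35). In each genotype the library that was highest for P2ry12 was also highest for P2ry13. This was not particular to the pair, since P2ry6, P2rx4, P2rx7 and Med12l had the same order of libraries. WT 2 was the highest WT library in 9 of the 10 genes, and KO 1 the highest KO library in 6. The ratio of P2ry12 to P2ry13 CPM within a library was 0.495, 0.593 and 0.514 in KO and 0.560, 0.523 and 0.539 in WT. The ratios, which are not corrected for length, overlapped between the genotypes, at 0.534 ± 0.0520 in KO and 0.541 ± 0.0181 in WT, while each gene on its own ranged several-fold. Leaving out any 1 library gave log2 fold changes of -2.34 to -1.80 for P2ry12 and -2.36 to -1.71 for P2ry13, and both stayed past the threshold each time.

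P2ry14, whose product responds to UDP-glucose, is the third P2Y gene of the cluster (ENSMUSG00000036381, chromosome 3, 59113855 to 59153618, minus strand), 54.27 kb from P2ry13. It stood at 6.67, 6.11 and 7.24 CPM in KO 1 to KO 3, against 8.76, 14.8 and 10.8 CPM in WT 1 to WT 3. The genotypes did not overlap, but the step was smaller, with a log2 fold change of -0.77 (SE 0.19). It no longer passed the threshold without KO 2 (-0.71) or KO 3 (-0.84). The ratio of P2ry14 to P2ry13 CPM was 0.320, 0.690 and 0.602 in KO and 0.171, 0.212 and 0.268 in WT, so within each KO library P2ry14 was higher relative to P2ry13 than in any WT library.

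**Figure D1:**
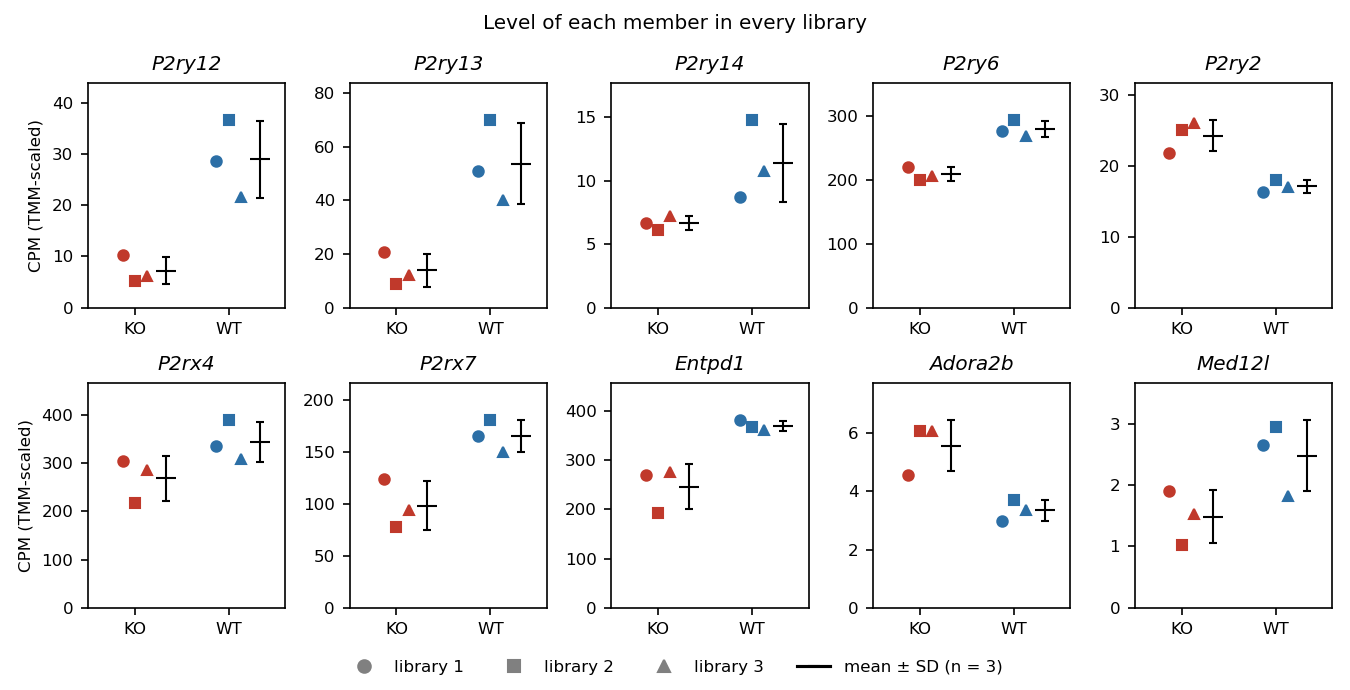
CPM after TMM scaling (vertical axes, each from 0) of the 10 genes in the 3 KO (left) and 3 WT (right) libraries, with marker shapes for library number and bars for mean ± SD. P2ry12 lies between 5.25 and 10.3 CPM in KO and between 21.7 and 36.6 CPM in WT, and Med12l is the gene whose genotypes overlap.

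Med12l, a paralog of the Mediator kinase-module subunit gene Med12, surrounds this cluster on the other strand. It (ENSMUSG00000056476, chromosome 3, 59005825 to 59318682, plus strand) spans P2ry12, P2ry13, P2ry14 and the receptor gene Gpr171. Libraries held 54, 30 and 46 counts of Med12l in KO 1 to KO 3 and 99, 78 and 53 in WT 1 to WT 3, so counting error is large for this gene. The CPM were 1.90, 1.03 and 1.53 in KO, against 2.65, 2.94 and 1.83 in WT, and KO 1 lay above WT 3. Its log2 fold change of -0.74 (SE 0.285) did not pass the threshold, except without KO 1, where it was -0.95.

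Shared counts were checked from the annotation: the library kit keeps strand, but the strand setting of the counting is not given in the sources used here. The exons of P2ry13 and P2ry14 share 0 bases with exons of Med12l in GENCODE M21, and those of P2ry12 share 9 of 2546 bases, or 0.354%. Reads in exons of the 3 receptor genes therefore lie in Med12l introns, apart from these 9 bases, and could enter the Med12l count only if introns were counted. In the other direction, unspliced Med12l reads over these exons could enter the receptor counts if the counting ignored strand. How many did so was not tested. Med12l shares 1948 exon bases with Igsf10 on the other strand, a gene with 0 to 5 counts per library. The ratio of Med12l to P2ry12 CPM was 0.184, 0.196 and 0.247 in KO and 0.0928, 0.0804 and 0.0844 in WT, so Med12l counts were not a fixed share of P2ry12 counts. The ratio cannot tell whether some Med12l counts came from P2ry12 reads, because reads of Med12l itself would change it too.

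Gpr171, another G protein-coupled receptor gene inside Med12l, was low, at 2.42, 0.858 and 1.20 CPM in KO and 2.30, 3.17 and 1.55 CPM in WT. The genotypes overlapped, with a log2 fold change of -0.65 (SE 0.42; edgeR adjusted p = 0.265). Without KO 1 it was -1.18 and passed the threshold (edgeR adjusted p = 0.0334), while leaving out any other library gave -0.87 to -0.37, not past it. The ribosomal protein pseudogene Rpl13-ps6, within 100 kb upstream of Med12l, stood at 0.512 ± 0.0990 CPM in KO and 0.504 ± 0.120 CPM in WT (edgeR adjusted p = 0.990).

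**Figure D2:**
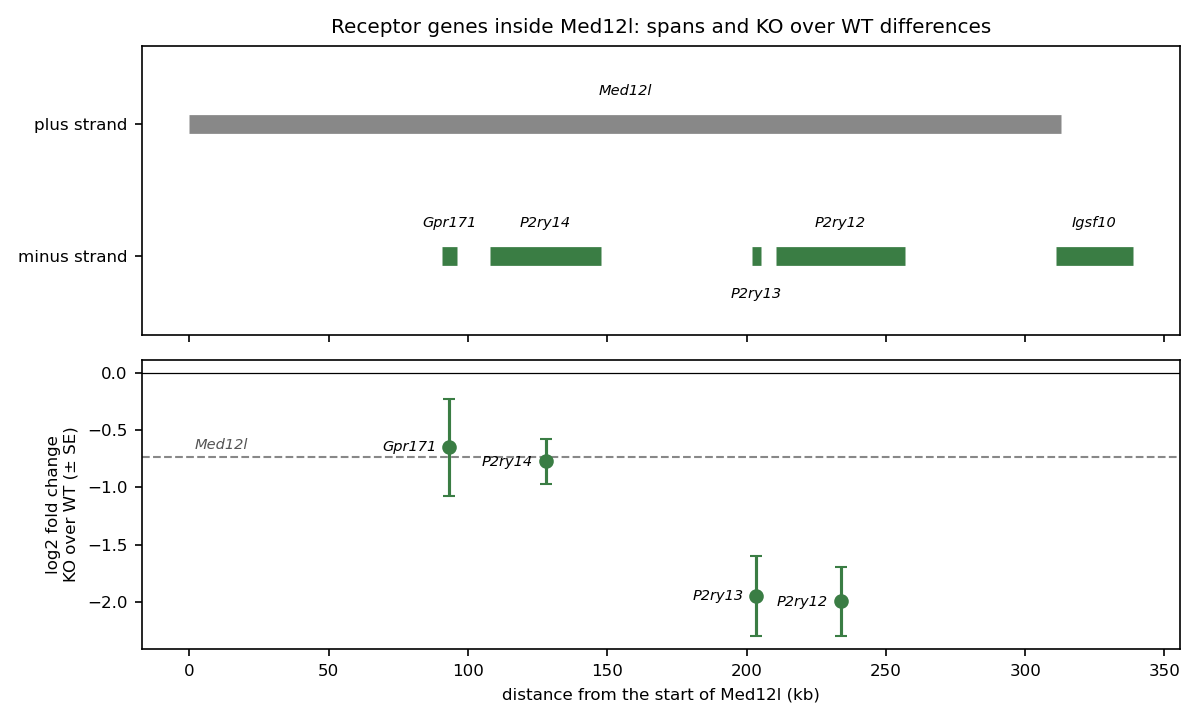
Upper panel, spans of protein-coding genes with counts within and beside Med12l by strand; lower panel, log2 fold change of KO over WT (± SE) of the tested receptor genes at the middle of their span, with Med12l as the dashed line. The horizontal axis is the distance from the start of Med12l in kb. P2ry13 and P2ry12, at -1.95 and -1.997, lie below P2ry14 at -0.77, Med12l at -0.74 and Gpr171 at -0.65.

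P2ry6 and P2ry2, neighbours 21.92 kb apart on chromosome 7, differed in opposite directions. P2ry6 encodes the UDP receptor, known in microglia for promoting phagocytosis, and P2ry2 the receptor for ATP and UTP, known for sensing nucleotides released by dying cells. P2ry6 (ENSMUSG00000048779, chromosome 7, 100937630 to 100974649, minus strand) stood at 220, 199 and 206 CPM in KO 1 to KO 3, against 277, 293 and 268 CPM in WT 1 to WT 3, with a log2 fold change of -0.42 (SE 0.065). P2ry2 (ENSMUSG00000032860, chromosome 7, 100996568 to 101012866, minus strand) was at 21.8, 25.0 and 26.0 CPM in KO, against 16.3, 18.0 and 17.0 CPM in WT, with a log2 fold change of 0.505 (SE 0.09). The genotypes overlapped for neither gene, and both stayed past the threshold without any 1 library. The ratio of P2ry6 to P2ry2 CPM was 10.1, 7.99 and 7.93 in KO and 17.0, 16.3 and 15.8 in WT.

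The ATP-gated channel genes P2rx7 and P2rx4 are neighbours on chromosome 5, 16.11 kb apart on the plus strand. P2X7 needs high ATP and is the classical trigger of the NLRP3 inflammasome, while P2X4 responds to lower ATP and is found largely on lysosomes. P2rx7 (ENSMUSG00000029468, chromosome 5, 122643911 to 122691432) stood at 124, 77.4 and 94.5 CPM in KO 1 to KO 3, against 166, 180 and 150 CPM in WT 1 to WT 3. All KO libraries were below all WT libraries, and the log2 fold change was -0.75 (SE 0.17). Its exons share 119 bases with Mir8115, a gene with 0 counts in all libraries. It lost the threshold without WT 1 (-0.75), WT 2 (-0.685) or KO 3 (-0.72), and without a filter on low counts (-0.75).

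P2rx4 (ENSMUSG00000029470, chromosome 5, 122707544 to 122729738) stood at 304, 216 and 285 CPM in KO, against 335, 388 and 308 CPM in WT. KO 1 and WT 3 were close, the log2 fold change was -0.36 (SE 0.14), and the gene did not pass the threshold except in DESeq2, which gave the same -0.36. The ratio of P2rx4 to P2rx7 CPM was 2.45, 2.79 and 3.02 in KO and 2.02, 2.15 and 2.05 in WT, without overlap.

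**Figure D3:**
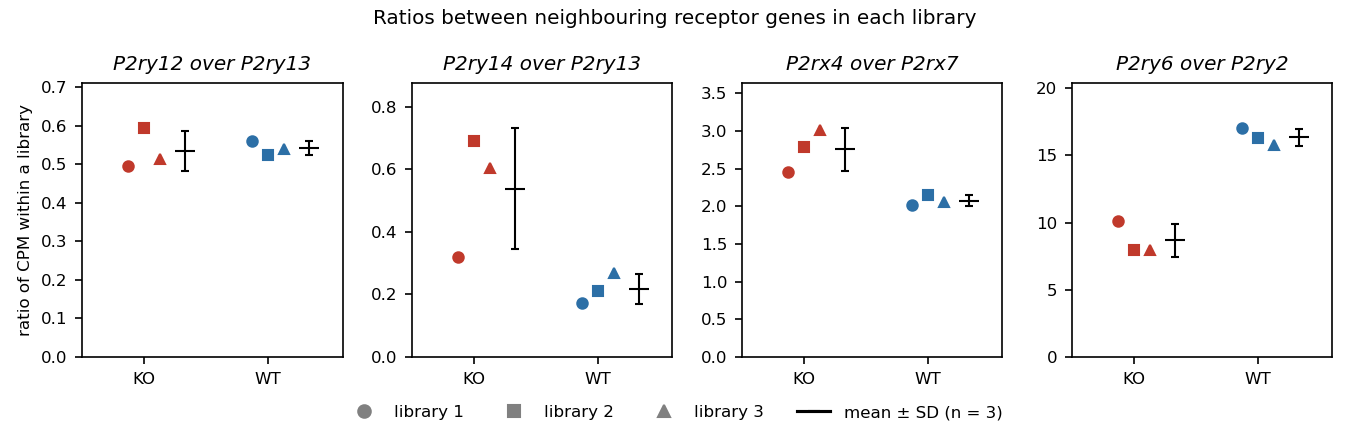
Ratio of CPM between 2 genes within a library (vertical axes, each from 0; not corrected for length) in KO (left) and WT (right), with marker shapes for library number and bars for mean ± SD. P2ry12 over P2ry13 overlaps between the genotypes, from 0.495 to 0.593 over all 6 libraries, while the other 3 ratios do not.

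Entpd1 encodes CD39, the surface enzyme that removes ATP and ADP (ENSMUSG00000048120, chromosome 19, 40612366 to 40741602, plus strand). It stood at 269, 193 and 275 CPM in KO 1 to KO 3, against 381, 368 and 361 CPM in WT 1 to WT 3. The WT libraries were close together and KO 2 was the lowest of all. The log2 fold change was -0.59 (SE 0.13), no longer past the threshold without WT 1 (-0.57) or WT 2 (-0.60).

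Adora2b encodes the A2B adenosine receptor, which raises cyclic AMP and responds to high adenosine (ENSMUSG00000018500, chromosome 11, 62248984 to 62266453, plus strand). It stood at 4.56, 6.08 and 6.05 CPM in KO 1 to KO 3, against 2.97, 3.70 and 3.34 CPM in WT 1 to WT 3. It was the other gene that was higher in every KO library, with a log2 fold change of 0.74 (SE 0.17), lost from the threshold without WT 1 (0.66) or KO 3 (0.67).

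Per kb of merged exon, the levels of the 10 genes differed widely. The order in KO was P2ry6 (72.2 ± 3.67 CPM per kb), Entpd1 (44.1 ± 8.17), P2rx4 (38.2 ± 6.57), P2rx7 (16.5 ± 3.92), P2ry2 (6.17 ± 0.555), P2ry13 (5.50 ± 2.46), Adora2b (3.01 ± 0.469), P2ry12 (2.85 ± 1.06), P2ry14 (0.604 ± 0.0513) and Med12l (0.116 ± 0.0341). In WT the order had the same first 4 and last 2 genes, with P2ry13 (21.3 ± 5.96 CPM per kb) and P2ry12 (11.4 ± 2.94) ahead of P2ry2 (4.35 ± 0.228) and Adora2b (1.81 ± 0.196). Libraries of neighbours in this order overlapped in KO for Entpd1 and P2rx4, for P2ry2 and P2ry13, and for Adora2b and P2ry12. In WT they overlapped for P2rx7 and P2ry13. The merged exons of P2ry14 reach 11059 bases over 9 annotated transcripts, so its level per kb depends on which of them the cells use.

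**Figure D4:**
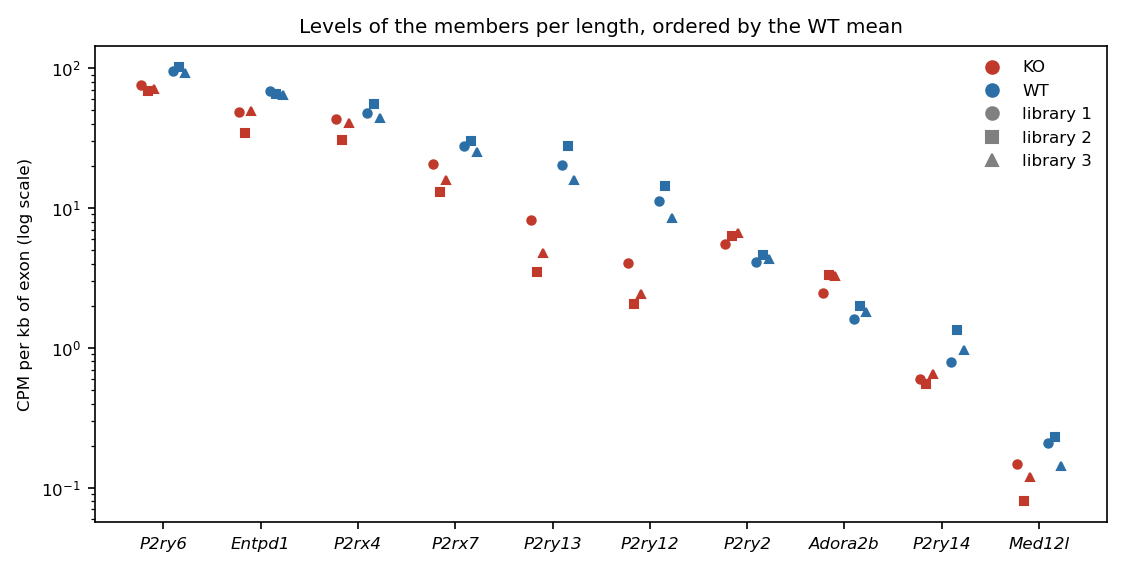
CPM per kb of merged exon (log axis) of the 10 genes in each library, KO left of WT for each gene, with marker shapes for library number; genes run by falling WT mean. P2ry13 and P2ry12 average 5.50 and 2.85 CPM per kb in KO against 21.3 and 11.4 in WT, while P2ry6 is first in both genotypes.

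The authors' normalized signal gave a second reading of the same libraries. Its division factors differ between genes, and for P2ry13 and Adora2b they lay within 1% of the library median in every library. For P2ry12 they ran from -8.66% to 11.6% of that median, higher in KO than in WT, and for Med12l down to -15.0% in KO 3. The mean signal of P2ry12 was 207 in KO and 920 in WT, and that of P2ry13 was 415 in KO and 1607 in WT. On log2 of this signal plus 1 the differences were -2.17 for P2ry12 and -2.002 for P2ry13, on that scale and from limma.

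Of 7 genes known from microglia 6 were tested, 3 fell and 0 rose, beside 16.8% of all genes that fell, and their sum was 602 to 1198 CPM in KO and 1607 to 1950 CPM in WT. Fcrls, an Fc receptor-like gene, fell to 530 CPM in KO, against 1334 CPM in WT (edgeR adjusted p = 0.0219), and Cx3cr1, the fractalkine receptor, to 71.5 CPM in KO, against 173 CPM in WT (edgeR adjusted p = 0.0477). Gpr34, a lysophosphatidylserine receptor and a relative of the P2Y12 family, fell to 43.1 CPM in KO, against 83.4 CPM in WT (edgeR adjusted p = 0.0473). Each of these calls was lost when some of the libraries were left out in turn, with the direction kept. That of Fcrls (log2 fold change -1.33) was lost without WT 1 (-1.29), WT 2 (-1.29) or KO 3 (-1.25), and without a filter on low counts (-1.335). Cx3cr1 (-1.28) passed without KO 1 but not without any other library (-1.42 to -1.01), and Gpr34 (-0.95) likewise (-1.02 to -0.74). Sall1, the transcription factor that defines microglia, was at 0 to 0.172 CPM in all libraries, and Tmem119 did not pass the threshold (log2 fold change -0.62, edgeR adjusted p = 0.122). The part of this group in the P2ry12 difference was not tested.

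Platelets also carry P2Y12. Of 10 platelet and megakaryocyte genes 7 were tested, 5 rose and 0 fell, beside 18.5% of all genes that rose, and the sums of the list overlapped, at 181 to 285 CPM in KO and 169 to 245 CPM in WT. The sum was mostly Pf4, a chemokine gene that macrophages also express, at 217 CPM in KO and 208 CPM in WT (edgeR adjusted p = 0.841). Treml1, a receptor of platelet granules, did not pass either, at 1.73 CPM in KO and 1.49 CPM in WT (edgeR adjusted p = 0.463). Itga2b, the integrin chain of platelets, rose to 5.21 CPM in KO, against 0.810 CPM in WT (edgeR adjusted p = 0.00433), and Gp5, a chain of the von Willebrand factor receptor, to 0.800 CPM in KO, against 0.105 CPM in WT (edgeR adjusted p = 0.00920). Both were higher in every KO library than in every WT library. Gp5 was near the floor in WT, at 0.0268, 0.151 and 0.138 CPM in WT 1 to WT 3. The part of the platelet and megakaryocyte genes in the P2ry12 difference was not tested.

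Beyond the 10 genes, 54 more genes of nucleotide signalling were listed by role. Pnp among them matched no row of the count table by symbol, and 38 passed the filter. Of these, 5 rose and 7 fell, or 31.6%, near the 35.2% of all genes tested, with a median log2 fold change of 0 against 0.001 over all genes. When 1 library was left out, 2 genes rose without WT 1, WT 2 or KO 2, 3 without KO 3 and 9 without KO 1, and the falls were 4 without WT 1, WT 2, KO 2 or KO 3. Of the other receptors, none of 5 tested passed the threshold. P2ry1, the ADP receptor coupled to Gq, stood at 13.7, 38.5 and 16.9 CPM in KO 1 to KO 3, against 12.8, 11.7 and 16.8 CPM in WT 1 to WT 3. Its log2 fold change of 0.74 (SE 0.40; edgeR adjusted p = 0.191) was 0.16 without KO 2, which stood apart from the other 5 libraries. Adora2a, the other cyclic AMP-raising adenosine receptor gene, was at 0.774 ± 0.182 CPM in KO and 0.415 ± 0.0919 CPM in WT (log2 fold change 0.88, edgeR adjusted p = 0.0628), and passed the threshold without KO 1 (1.04).

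Among other nucleotide-degrading enzymes, 9 of 15 were tested, 1 rose and 2 fell, or 33.3%, beside 35.2% of all genes tested. Bst1, an ectoenzyme that cleaves NAD, rose to 8.28 ± 1.94 CPM in KO, against 3.95 ± 0.317 CPM in WT (log2 fold change 1.07, SE 0.19; edgeR adjusted p = 0.00831). Entpd4, a Golgi and lysosomal relative of CD39, fell to 15.7 ± 1.56 CPM in KO, against 24.1 ± 2.24 CPM in WT (log2 fold change -0.615, edgeR adjusted p = 0.00708). It may share reads with its near-identical copy Entpd4b, named after its values were seen, which stood at 24.3, 19.4 and 24.5 CPM in KO and 27.1, 26.7 and 18.8 CPM in WT. Enpp1, which hydrolyses ATP to AMP and pyrophosphate, fell to 36.9 ± 3.48 CPM in KO, against 45.4 ± 1.15 CPM in WT (edgeR adjusted p = 0.0217). Its log2 fold change of -0.30 did not pass without WT 1 (-0.28), WT 2 (-0.31), KO 2 (-0.27) or KO 3 (-0.26). Nt5e, the gene of CD73, was low, at 0.699 ± 0.239 CPM in KO and 0.962 ± 0.327 CPM in WT (edgeR adjusted p = 0.329).

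Of 7 genes that move or break down adenosine 6 were tested, all but the unmatched Pnp, 2 rose and 2 fell, or 66.7%, beside 35.2% of all genes tested. Slc29a2, the nucleoside transporter ENT2, rose to 2.54 ± 0.313 CPM in KO, against 1.38 ± 0.317 CPM in WT (log2 fold change 0.88, edgeR adjusted p = 0.0228). That call was absent without WT 1 (0.73), WT 2 (0.85), KO 2 (0.83) or KO 3 (0.82), and on the deposited signal (0.76). Adk, adenosine kinase, which returns adenosine to AMP, rose to 21.5 ± 3.23 CPM in KO, against 15.0 ± 2.16 CPM in WT (log2 fold change 0.52, edgeR adjusted p = 0.0307). It did not pass without WT 1 (0.54), WT 2 (0.40), KO 2 (0.405) or KO 3 (0.51). Slc29a3, the lysosomal transporter ENT3, fell to 156 ± 14.8 CPM in KO, against 205 ± 22.02 CPM in WT (log2 fold change -0.40, edgeR adjusted p = 0.0218), a call not reached without WT 1 (-0.44), WT 2 (-0.31), KO 2 (-0.32) or KO 3 (-0.42). The other fall, Slc29a1, the transporter ENT1, named after its values were seen, was to 60.7 ± 2.65 CPM in KO, against 73.8 ± 3.43 CPM in WT (log2 fold change -0.28, edgeR adjusted p = 0.0131).

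In the nucleotide release group 7 of 10 genes were tested, 0 rose and 2 fell, or 28.6%, beside 35.2% of all genes tested. Lrrc8a, the essential subunit of the volume-regulated anion channel, fell to 27.3 ± 1.12 CPM in KO, against 35.6 ± 2.99 CPM in WT (log2 fold change -0.38, edgeR adjusted p = 0.0107). Panx1, the pannexin channel through which cells release ATP, was just past the threshold, at 25.5 ± 0.928 CPM in KO and 29.2 ± 1.55 CPM in WT (log2 fold change -0.20, edgeR adjusted p = 0.0499). Its call was lost without any 1 library, at -0.24 to -0.16, and under 7 of 9 other settings, down to -0.03 on the deposited signal.

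Among G proteins, effectors and channel partners, 11 of 12 were tested, 2 rose and 1 fell, or 27.3%, beside 35.2% of all genes tested. Gnai2, a Gi subunit gene of the kind through which P2Y12 signals, was at 927 ± 28.9 CPM in KO and 980 ± 41.0 CPM in WT (edgeR adjusted p = 0.365). Plcb4, a phospholipase C of the Gq pathway, rose at a low level to 2.94 ± 0.141 CPM in KO, against 0.763 ± 0.220 CPM in WT (log2 fold change 1.94, SE 0.24; edgeR adjusted p = 0.00499). Plcb1 rose to 0.902 ± 0.233 CPM in KO, against 0.365 ± 0.0217 CPM in WT (log2 fold change 1.29, edgeR adjusted p = 0.0162), not past the threshold without WT 1 (1.31), WT 2 (1.24) or KO 2 (1.06). Kcnk6, a potassium channel known in mouse macrophages as a partner of P2X7 in inflammasome activation, fell to 47.9 ± 0.676 CPM in KO, against 64.3 ± 4.32 CPM in WT (log2 fold change -0.42, edgeR adjusted p = 0.00596).

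**Figure D5:**
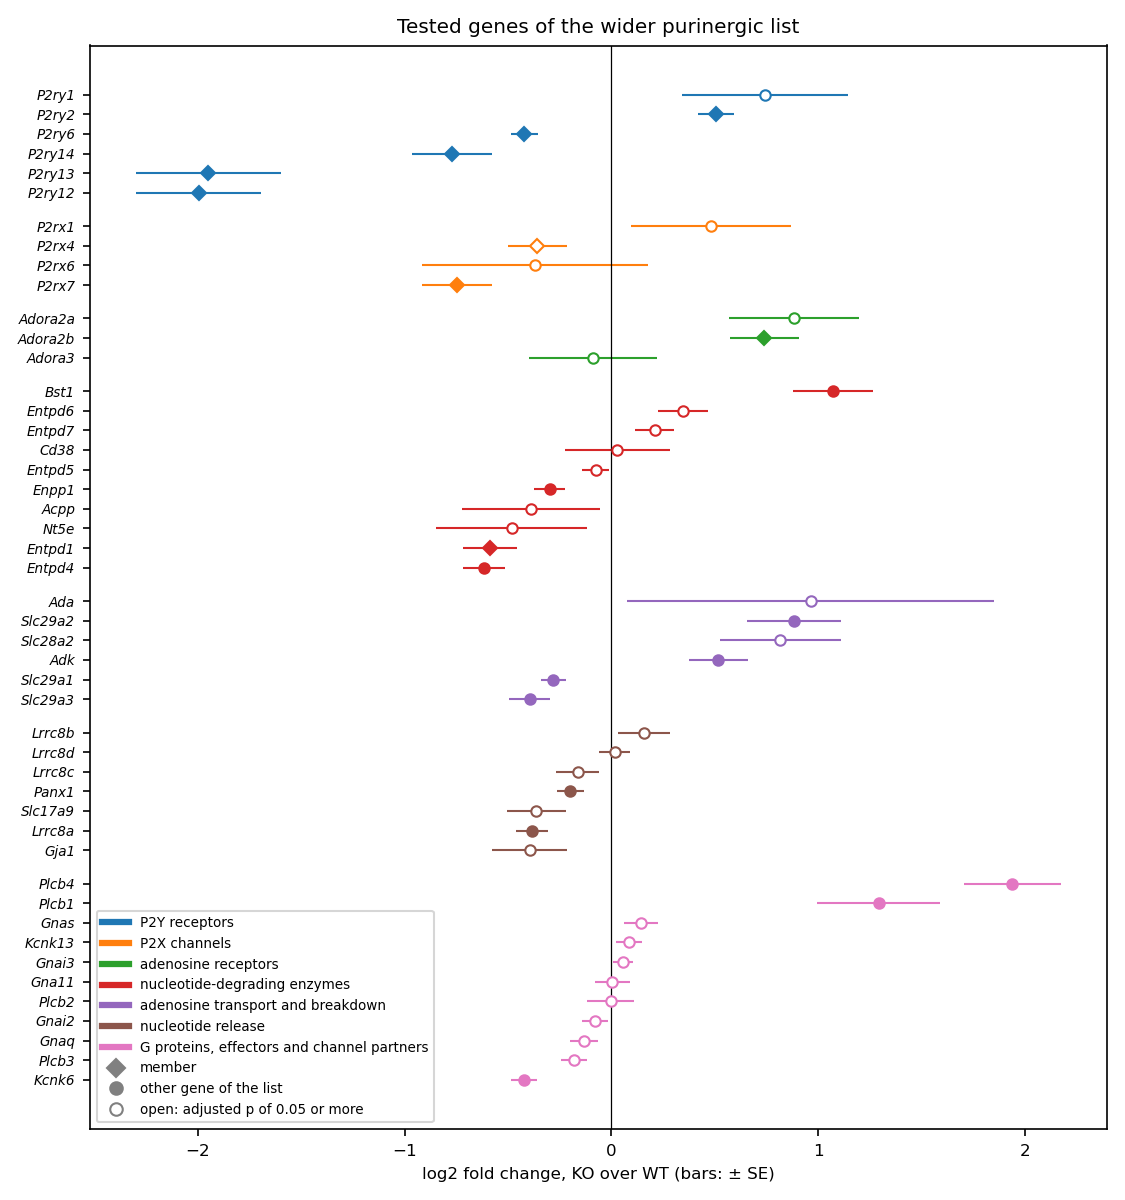
Log2 fold change of KO over WT (horizontal axis, bars ± SE) of the tested genes of nucleotide signalling, coloured by role and sorted within it; diamonds (member) are genes among the 10 described first, circles other genes, and open symbols did not pass the threshold. P2ry12 and P2ry13 lie farthest to the left, at -1.997 and -1.95, and Plcb4 farthest to the right, at 1.94.

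Likeness to P2ry12 was measured over all libraries. Of 8662 other genes with a mean of at least 10 CPM, 1034 had a Pearson r above 0.95 with P2ry12 in log2 CPM over the 6 libraries, a value to which the step between genotypes contributes whatever the order within a genotype. The 5 most alike, at 0.998 to 0.999, were Mapk14, the stress kinase p38 alpha, Rubcn, an autophagy regulator, Fchsd2, a membrane-bending adaptor, Cd164, a sialomucin, and Mtus1, a microtubule-associated protein. Of these, Mtus1 had the difference nearest in size, at 23.2 ± 6.71 CPM in KO and 78.1 ± 13.7 CPM in WT. P2ry13 was number 11 by this measure.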

How the data were processed

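RNA libraries were made with a directional kit, per the labels' protocols. The submitters' processing notes name DRAGEN, DESeq2 and the mm10 build, with no versions or roles; the annotation, the counting and its strand setting: not given in the sources used here. The authors deposited raw counts per gene for each library and a normalized signal, which is not a constant multiple of the counts within a library. CPM and log2 fold changes were computed here from the deposited counts, with edgeR 4.0.16 in R 4.3.3 (filterByExpr with a minimum count of 10, TMM, robust quasi-likelihood test, Benjamini-Hochberg adjustment over all genes tested). limma 3.58.1 and DESeq2 1.42.0 served alternatives, limma on log2(deposited signal + 1) or + 5. Totals of 27170943 to 37113689 counts limit precision for genes of few counts.

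Genotype came from the labels. Library numbers follow accession order and pair nothing. Counts of different libraries of 1 genotype differed beyond sampling noise, so each library was a replicate. P-values measure only how these libraries vary, which may be technical.

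The 10 genes and the lists were chosen with earlier results of these data known. Named beside them were, per role, up to 3 genes past the threshold with the largest differences, genes with counts at the Med12l locus or within 100 kb of it, and the 5 genes most like P2ry12. Some genes short of the threshold were named for their role after their values were seen. Spans and exons are from GENCODE M21 (GRCm38), and promoters from RefSeq (GRCm38.p6), where 9 of the 10 genes matched. Protein sequences were not used here.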

Additional observations from a re-analysis of the deposited data

How the results depend on the processing

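Leaving out 1 library in turn gave 1037 to 2791 genes higher and 942 to 2665 genes lower in KO, against 2375 and 2157 with all libraries. In the wider list it gave 2 to 9 higher and 4 to 6 lower genes, against 5 and 7. The 9 other settings gave 1929 to 2933 higher and 1621 to 2192 lower genes, each within 1.5 times the count reported. Of 150 alternative values of the 10 genes, 138 kept direction and side of the threshold, 10 lost the threshold, 2 gained it and 0 changed sign. Of 505 values of other named genes, 439 kept both, 57 lost the threshold, 2 gained it and 7 changed sign. These include 16 genes named outside the rule, whose alternatives were added after seeing the data; Treml1 and Sall1 were not refitted. The 7 belong to genes far from the threshold: Rpl13-ps6 (log2 fold change 0.006), at -0.003 and -0.006 on the deposited signal plus 1 and plus 5, and from -0.156 to 0.188 without 1 library; Pf4 (0.061), from -0.131 to 0.212 without 1 library; and Entpd4b (-0.093), from -0.246 to 0.011. The calls of Cx3cr1 and Gpr34 were also lost with upper-quartile scaling (-1.22 and -0.90) and without a filter (-1.28 and -0.957), and that of Gpr34 with plain totals (-0.936). The cause was not tested. No paired analysis was possible because the labels give no replicate numbers that KO and WT share. Depth limits Med12l, Gpr171, Nt5e, Adora2a, Plcb1, Plcb4, Slc29a2, Rpl13-ps6, Igsf10, Gp5, Treml1 and Sall1, all under 4 CPM.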

Other observations

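Ada, adenosine deaminase, which converts adenosine to inosine, split the libraries across genotypes; the gene was picked with its values in view. It stood at 13.2, 15.9 and 2.36 CPM in KO 1 to KO 3, against 11.5, 2.11 and 2.14 CPM in WT 1 to WT 3. KO 1, KO 2 and WT 1 were thus high and KO 3, WT 2 and WT 3 low, and the log2 fold change of 0.96 (SE 0.89) did not pass the threshold (edgeR adjusted p = 0.429, Benjamini-Hochberg). The mice are of a mixed 129S1/Sv x C57BL/6 background, whose part in this split was not tested.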
